A study of Mus musculus with 6 samples.

Results

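The thioredoxin, glutathione and NRF2 redox genes were taken as the rows of the counts table whose mouse gene symbol is one of 36 listed members. All 36 were found among the 57010 gene identifiers of the table, and all 36 passed the filter on low counts that left 16439 genes for testing. Naive CD8 T cells had been sorted from lymph nodes and spleen of C57BL/6 mice at 8 weeks of age and stimulated for 24 hours through CD3 and CD28 with antibodies. The 3 WT libraries are from MondoAfl/fl mice, which carry the floxed MondoA (Mlxip) alleles and no Cre, and the 3 KO libraries are from MondoAfl/flCD4cre mice. The floxed alleles and the activation are thus common to both groups, and the Cre transgene is in KO alone. CD4cre acts in developing T cells, so effects of Cre, of deletion during development and of deletion in the activated cell cannot be told apart. Whether the 6 samples are 6 separate mice is not stated in the labels, so p-values here reflect only the scatter among these samples, some of it possibly technical.

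The thioredoxin and glutathione systems are the main thiol-based routes by which cells reduce hydrogen peroxide and oxidised proteins, and both draw on NADPH. NRF2 (Nfe2l2) is held low by KEAP1 and, when released, induces many of the enzymes of both systems, whereas BACH1 represses heme and iron genes such as Hmox1 and the ferritins until heme removes it. MondoA enters this network through its direct target Txnip, whose protein binds and inhibits thioredoxin. Activation of T cells raises the production of reactive oxygen species, and glutathione synthesis is needed for their growth.

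Library totals lay between 26150420 and 34447230 counts, and values below are CPM, counts scaled to a common library total, after TMM scaling unless another scale is named. Mlxip was 124, 121 and 142 CPM in WT 1 to 3 and 79.5, 92.6 and 86.0 CPM in KO 1 to 3, with an adjusted p of 0.125 in edgeR and 8.60e-05 in DESeq2 (Benjamini-Hochberg). Txnip was 219, 232 and 214 CPM against 80.4, 73.8 and 75.7 CPM. By transcripts of Xist and of Y-linked genes, WT 3 and KO 2 were female and the other 4 libraries male, 1 female library in each group. The 6 CD8 T cell markers summed to 1500 to 1850 CPM in WT and 1750 to 2070 CPM in KO. The sums were 51.0 to 86.8 and 26.4 to 62.8 CPM for 5 B cell markers (Cd79a the most abundant), 13.7 to 26.2 and 9.52 to 15.5 CPM for 4 CD4 T cell markers (Foxp3 the most abundant), and 14.2 to 23.5 and 14.2 to 19.7 CPM for 10 myeloid markers, in WT and KO. Of the myeloid markers, Cd68 stood highest and Lyz2, C1qa and Cd163 were without a read in at least 1 library. The 7 erythroid markers summed to between 1.86 and 5.68 CPM over the 6 libraries, with Hba-a2 and Slc4a1 without a read in at least 1. The 4 NK cell markers, mostly Eomes, which CD8 T cells also express, summed to 69.4 to 84.7 CPM in WT and 82.3 to 106 CPM in KO, and Ncr1 and Klra8 were without a read in at least 1 library. No marker passed the adjusted test, and at an unadjusted p under 0.05 there were 2 CD4 T cell, 1 B cell, 2 myeloid and 1 NK cell markers lower in KO and 1 CD8 T cell and 1 NK cell marker higher. With low-count genes kept, Foxp3 (log2 fold change -0.74, adjusted p = 0.0068) and Eomes (0.40, adjusted p = 0.0111) passed in edgeR with Benjamini-Hochberg adjustment. That setting called 511 genes in all, against 2 with the filter. In such bulk samples fewer cells of a type and less RNA per cell cannot be told apart, and the part of other cell types in the results below was not tested.

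None of the 36 redox genes passed the test of KO against WT. With edgeR's quasi-likelihood test and Benjamini-Hochberg adjustment over all 16439 genes, 0 of the 36 members had an adjusted p under 0.05, where 2 genes in all (0.0122% of those tested) did, Txnip and Arrdc4. At an unadjusted p under 0.05 there was 1 member, Srxn1, lower in KO, and 0 were higher. The share over all genes was 10.8%, with 5.77% lower in KO. DESeq2, run as an alternative, called Srxn1 among 153 genes (0.931% of the 16439). It gave some scarce genes no adjusted p, so the share of the genes it adjusted is larger. The 3 KO libraries lay wholly below the 3 WT libraries in 4 members (Srxn1, Cat, Nqo1 and Gsto1) and wholly above in 0, while 16.4% of all genes had groups that did not overlap, 8.65% with KO below and 7.80% with KO above.

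The fitted log2 fold changes of the members ran from -0.87 (Srxn1) to 0.30 (Gpx1), with a median of 0.045 against -0.016 for all genes tested. Of the 36, 23 were above 0, where 47.2% of all genes were. With library size as the only scaling 11 were above 0 (35.4% of all genes) and the medians were -0.022 for members and -0.083 for all genes. Without WT 3 the count above 0 was 14 and the members' median -0.014, so the sign of these small values turns with the scaling and with 1 library. The 95% interval of the log2 fold change lay within -1 and 1 for 34 of the 36 members and within -0.5 and 0.5 for 30. Srxn1 and Hmox1 had intervals that reached past -1. The interval of Txnip, by contrast, was -1.71 to -1.36.

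**Figure D1:**
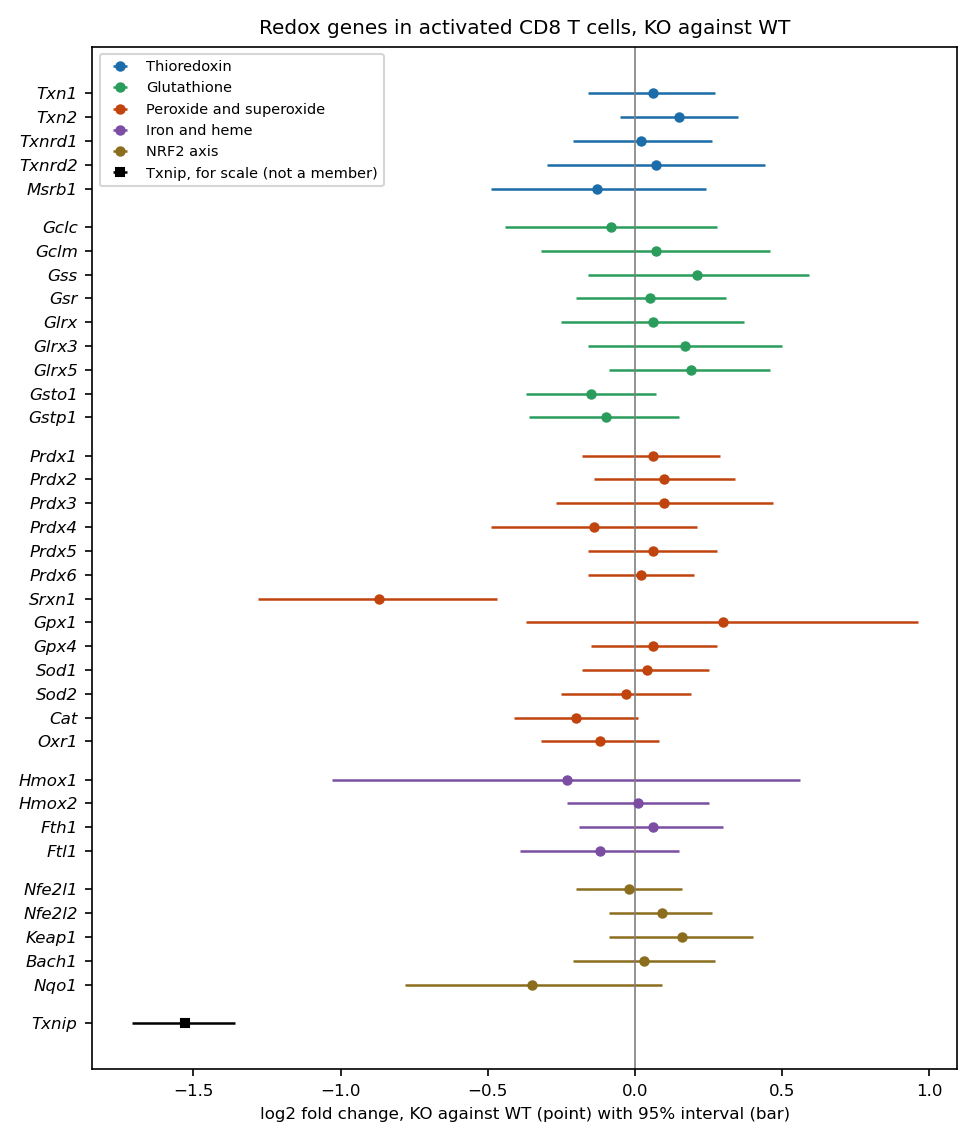
Each point is the fitted log2 fold change of KO against WT for 1 member and each bar its 95% interval, coloured by arm, with Txnip drawn for scale. The interval of Srxn1 (-1.28 to -0.47) is the only one among the members that does not include 0, Cat reaches just past it at 0.01, and Hmox1 and Gpx1 have the widest intervals.

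Of the 5 members of the thioredoxin arm 4 had a log2 fold change above 0, with a median of 0.056 and no call. The groups overlapped in all 5, although the transcript of its inhibitor Txnip fell (log2 fold change -1.53, adjusted p = 3.85e-05, edgeR quasi-likelihood test, Benjamini-Hochberg). Txn1, cytosolic thioredoxin, was 179, 158 and 154 CPM in WT 1 to 3 and 185, 172 and 153 CPM in KO 1 to 3. The groups overlapped over their whole range, with a log2 fold change of 0.06 and a 95% interval of -0.16 to 0.27. Txnrd1, the cytosolic selenoprotein that reduces thioredoxin with NADPH, was 417, 355 and 326 CPM against 348, 410 and 357 CPM. Its highest value was in WT 1 and its lowest in WT 3, and the interval of its log2 fold change was -0.21 to 0.26. The mitochondrial pair differed in abundance. Txn2, mitochondrial thioredoxin, was 73.4, 77.6 and 68.0 CPM in WT and 85.5, 84.2 and 73.4 CPM in KO, a log2 fold change of 0.15 (interval -0.05 to 0.35) in which KO 3 lay among the WT libraries. Txnrd2, its reductase, was between 6.33 and 8.92 CPM in the 6 libraries, and both of these extremes were WT libraries. Msrb1, a selenoprotein that repairs oxidised methionine, was 22.6, 19.2 and 23.8 CPM in WT and 15.9, 25 and 19.2 CPM in KO, so that KO held both the highest and the lowest library.

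The glutathione arm held 6 of 9 members above 0, a median log2 fold change of 0.061 and no call. Glutathione synthesis begins with glutamate-cysteine ligase, whose catalytic subunit is Gclc and modifier subunit Gclm. Gclc was 267, 223 and 211 CPM in WT 1 to 3 and 161, 245 and 256 CPM in KO 1 to 3. KO 1 stood below every other library and KO 2 and KO 3 stood above 2 of the WT libraries, so the log2 fold change of -0.08 (interval -0.44 to 0.28) became 0.10 without KO 1 and 0.03 without WT 1. Gclm was 131, 99.3 and 78.7 CPM in WT and 86.8, 117 and 121 CPM in KO, with WT 1 and WT 3 at its extremes. Gss, which adds glycine in the second step, was scarce at 5.64 to 7.74 CPM in WT and 7.04 to 8.30 CPM in KO. Its log2 fold change of 0.21 had an interval of -0.16 to 0.59.

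The enzymes that reduce or use glutathione also overlapped between groups, with 1 exception by a narrow margin. Gsr, glutathione reductase, was 66.1 ± 7.03 CPM over the WT libraries and 68.6 ± 9.20 CPM over the KO libraries (SD, n = 3 each). The glutaredoxins Glrx3 and Glrx5, which carry iron-sulfur clusters, had log2 fold changes of 0.17 and 0.19 with WT 3 lowest and KO 1 highest in both. Without WT 2 both passed an unadjusted p of 0.05, and neither passed after adjustment. Glrx, the cytosolic glutaredoxin, was between 17.9 and 25 CPM, with both extremes in WT. Gsto1, an omega-class glutathione transferase, was 25.9, 25.5 and 25.9 CPM in WT and 24.4, 21.3 and 23.8 CPM in KO, for a log2 fold change of -0.15 and an adjusted p of 0.585 (edgeR quasi-likelihood test, Benjamini-Hochberg). All 3 KO libraries lay below WT, and the gap between the nearest libraries was smaller than the spread within KO. Gstp1, a pi-class transferase, was 41.1 ± 6.19 CPM in WT against 38.2 ± 1.26 CPM in KO (± SD of 3). It has close copies in the genome, and its counts of 962 to 1536 stand beside 523 to 854 for Gstp3 and 6 to 16 for Gstp2, between which reads may have been shared.

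In the peroxide and superoxide arm 8 of 13 members were above 0 and the median log2 fold change was 0.037, again with no call. Srxn1, lower in KO, was the member with the largest difference. It encodes sulfiredoxin, the enzyme that returns overoxidised peroxiredoxins to service, and is known as an NRF2 and AP-1 target. Srxn1 (ENSMUSG00000032802) was 7.76, 6.18 and 5.97 CPM in WT 1 to 3 and 3.44, 3.51 and 3.92 CPM in KO 1 to 3. Every KO library lay below every WT library, and the KO libraries lay closer together than the WT libraries, in which WT 1 stood highest. The log2 fold change was -0.87 (standard error 0.182, 95% interval -1.28 to -0.47), a KO level of 0.546 times that of WT. Its unadjusted p of 0.000682 ranked 35 among 16439, and the adjusted p of 0.32 missed the threshold (edgeR quasi-likelihood test, Benjamini-Hochberg). The adjusted p was 0.0143 with DESeq2 and 0.00972 in edgeR with low-count genes kept. It was between 0.146 and 0.847 with 1 library left out, where the log2 fold change ran from -0.94 (without WT 3) to -0.74 (without WT 1). Srxn1 therefore kept its direction in all 14 alternatives and passed in 2 of them, all on the same counts, and its KO libraries held as few as 107 reads of the gene. The part of other cell types in the Srxn1 values was not tested.

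**Figure D2:**
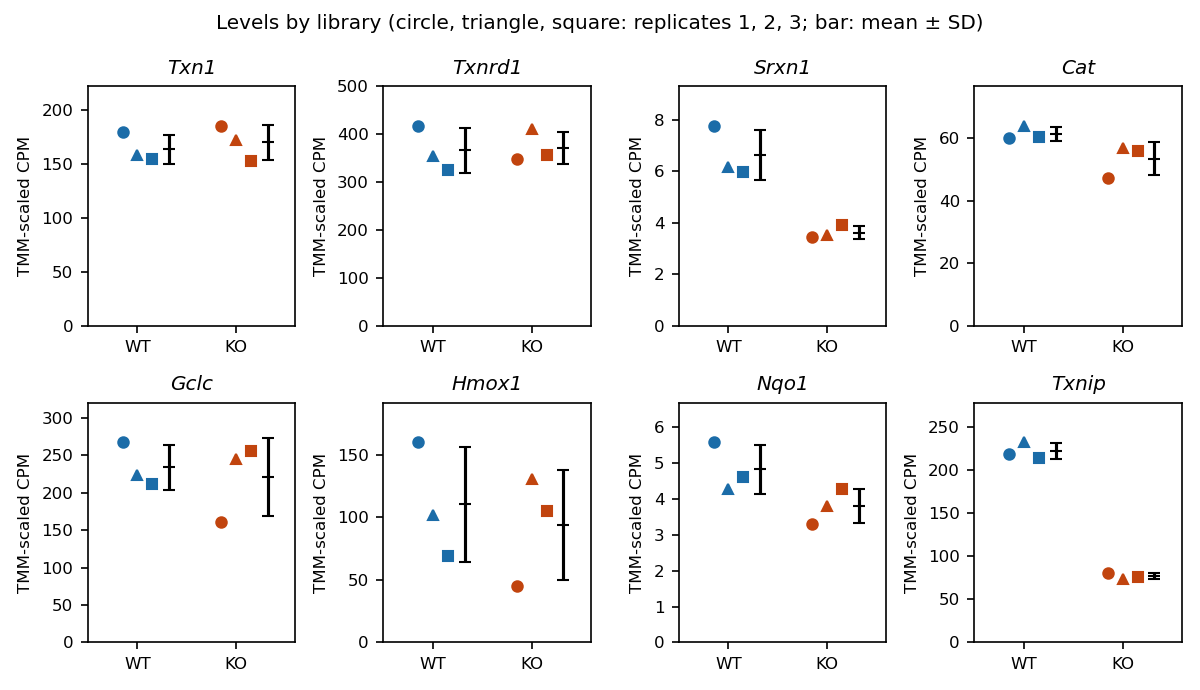
TMM-scaled CPM in each library for 7 members and Txnip, with the mean ± SD of 3 libraries at the right of each group; each axis starts at 0. Srxn1, Cat and Nqo1 have all KO libraries below all WT libraries, as Txnip does at a larger distance, whereas Txn1, Txnrd1, Gclc and Hmox1 overlap and KO 1 (circle) is lowest in Gclc and Hmox1.

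None of the 6 peroxiredoxins, among them the substrates of sulfiredoxin, passed the test. Prdx1, the abundant cytosolic peroxiredoxin, was 327, 311 and 255 CPM in WT and 336, 305 and 288 CPM in KO, with a log2 fold change of 0.06 and an interval of -0.18 to 0.29. Prdx2, the other cytosolic form, was 31.6 ± 2.54 and 34 ± 3.20 CPM (± SD of 3). Prdx3, the mitochondrial form, was 41.9, 44.9 and 30.4 CPM in WT and 51.5, 37.6 and 36.7 CPM in KO, and its extremes were WT 3 and KO 1, as for Prdx1. Prdx4, which acts in the endoplasmic reticulum, was 7.77 ± 0.200 CPM in WT against 7.06 ± 0.986 CPM in KO (± SD of 3), with KO 3 the highest of the 6 and KO 2 the lowest. Prdx5 was between 41.2 and 49.4 CPM, both in KO, and shares 19.1% of its exon bases with Trmt112 on the other strand. Prdx6, which uses glutathione rather than thioredoxin, was the steadiest member at 289 to 323 CPM, 1.12-fold from lowest to highest, and the interval of its log2 fold change was -0.16 to 0.20.

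Among the other enzymes that remove peroxide and superoxide, catalase stood lower in KO by a small amount. Cat was 60.0, 64.0 and 60.4 CPM in WT and 47.5, 57.0 and 56.0 CPM in KO. The KO libraries lay below WT, with KO 1 the farthest, and the log2 fold change was -0.20 (interval -0.41 to 0.01, adjusted p = 0.473, edgeR quasi-likelihood test, Benjamini-Hochberg), or -0.12 without KO 1. The superoxide dismutases Sod1 (cytosolic, 212 ± 23.0 and 218 ± 16.7 CPM) and Sod2 (mitochondrial, 50.9 ± 4.58 and 50 ± 3.81 CPM) differed by less than the spread in either group (± SD of 3). Gpx4, the glutathione peroxidase that acts on lipid peroxides and guards against ferroptosis, was 60.2 ± 4.69 CPM in WT against 63.0 ± 4.91 CPM in KO (± SD of 3), with a processed copy, Gpx4-ps2, at a mean of 530 counts beside 1977 for the gene. Gpx1, the cytosolic glutathione peroxidase, had only 38 to 71 counts in a library, 1.6 ± 0.456 CPM in WT against 1.96 ± 0.206 CPM in KO (± SD of 3), and its log2 fold change of 0.30 had an interval of -0.37 to 0.96. Oxr1, an oxidation resistance gene, was 52.5, 55.5 and 48.4 CPM against 48.2, 46.5 and 49.2 CPM, where 1 KO library reached above WT 3.

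The iron and heme arm, with 2 of 4 members above 0 and a median log2 fold change of -0.055, held the most variable member. Hmox1, the inducible heme oxygenase that frees iron from heme, was 160, 102 and 69.5 CPM in WT 1 to 3 and 45.4, 131 and 105 CPM in KO 1 to 3, a 3.52-fold range that crossed the groups. The log2 fold change was -0.23 with an interval of -1.03 to 0.56, and it became 0.13 without WT 1 and 0.10 without KO 1. Hmox2, the constitutive enzyme, was between 24.3 and 29.3 CPM, but 40.2% of its exon bases lie opposite Cdip1, so its counts are uncertain. Fth1, the ferritin heavy chain, was 864, 752 and 696 CPM in WT and 738, 930 and 737 CPM in KO, and Ftl1, the light chain, was 361, 309 and 315 CPM against 252, 358 and 296 CPM. In both ferritins WT 1 and KO 2 were the 2 highest libraries, and KO 1 was the lowest in Ftl1. Summed myeloid and erythroid markers were 19.8 and 3.69 CPM in WT 1, where Hmox1 was highest, 14.2 and 3.41 CPM in KO 1, where it was lowest, and 23.5 and 5.68 CPM in WT 3, where both sums were highest. Cd68, the most abundant myeloid marker, was highest in KO 2 (15.5 CPM) and lowest in WT 2 (9.91 CPM). Among the 2 most abundant markers of each list, Spic, Foxp3 and Zbtb7b had the extremes of Hmox1. Spic, a macrophage transcription factor induced by heme, was 2.46, 1.93 and 2.25 CPM in WT and 0.740, 1.16 and 0.995 CPM in KO (adjusted p = 0.330, edgeR quasi-likelihood test, Benjamini-Hochberg). Foxp3, of regulatory T cells, was 15.2, 6.31 and 11.5 CPM in WT and 4.63, 9.40 and 5.65 CPM in KO. Zbtb7b, of CD4 T cells, was 5.44, 3.60 and 4.46 CPM against 2.48, 3.27 and 4.04 CPM. All 3 were highest in WT 1 and lowest in KO 1, whereas Cd8a and Cd8b1 were highest in KO 1 and lowest in WT 1. Hmox1 was higher in KO 2 than in WT 3, while Spic, Foxp3 and Zbtb7b were each lower in KO 2 than in WT 3. Gclc, Ftl1, Srxn1 and Nqo1 were, like Hmox1, highest in WT 1 and lowest in KO 1. The part of other cells in the values of Hmox1 and of these members was not tested.

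In the NRF2 axis 3 of 5 members were above 0 and the median log2 fold change was 0.033. Neither the regulators nor Nqo1 passed the test. Nfe2l2 was 160, 167 and 165 CPM in WT and 171, 187 and 165 CPM in KO, a log2 fold change of 0.09 (interval -0.09 to 0.26). Nfe2l1, the related factor that drives proteasome genes, was 146 ± 10 and 144 ± 2.58 CPM (± SD of 3), and Bach1 was 189 ± 17.2 and 194 ± 24.0 CPM (± SD of 3). Keap1, the adaptor that marks NRF2 for degradation, was 69.3, 74.3 and 61.1 CPM in WT and 85.4, 76.5 and 66.1 CPM in KO, a log2 fold change of 0.16 in which KO 3 lay among the WT libraries. Nqo1, a quinone reductase much used as a readout of NRF2, was scarce at 5.58, 4.29 and 4.61 CPM in WT and 3.31, 3.82 and 4.27 CPM in KO. Its groups did not overlap, but WT 2 and KO 3 differed by less than the spread in either group, and the log2 fold change of -0.35 had an interval of -0.78 to 0.09 (adjusted p = 0.538, edgeR quasi-likelihood test, Benjamini-Hochberg). These are transcript levels and do not measure NRF2 or BACH1 protein.

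Members also differed among libraries of the same genotype. KO 1 was the highest library for 11 members, among them Txn1, Txn2, Prdx1, Prdx2, Prdx3, Prdx5, Glrx3 and Glrx5, and the lowest for 8, namely Hmox1, Ftl1, Gclc, Bach1, Nqo1, Srxn1, Cat and Msrb1. WT 1 was the highest for 9, namely Hmox1, Ftl1, Gclc, Gclm, Nqo1, Srxn1, Txnrd1, Sod1 and Gsto1. WT 3 was the lowest for 12, among them Prdx1, Prdx3, Glrx3, Glrx5 and Gclm. Over all genes tested KO 1 was the highest library for 21.4% and the lowest for 24.8%, WT 1 the highest for 16.6% and WT 3 the lowest for 20.7%. Relative to the 6-library mean, the median deviation of the iron and heme arm was 0.175, 0.042 and -0.113 in WT 1 to 3 on the log2 scale, and -0.197, 0.222 and -0.083 in the KO libraries. In the thioredoxin arm these values were 0.103, -0.074 and -0.111 in WT and 0.070, 0.133 and -0.065 in KO, so neither arm separated the genotypes. From lowest to highest library the median member ranged 1.33-fold, beside 1.31-fold over 9866 genes whose mean reached 5 CPM.

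**Figure D3:**
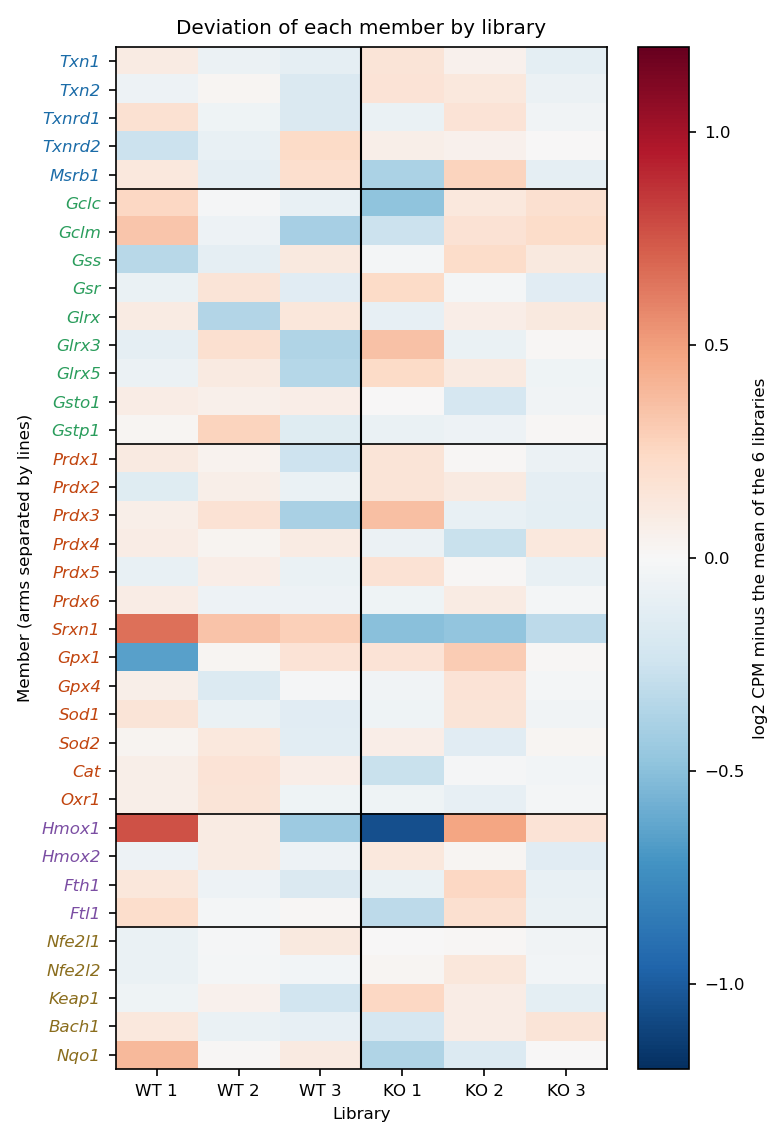
Colour gives the log2 CPM of each member in each library minus its mean over the 6 libraries; black lines separate the arms and the genotypes. Srxn1 alone is above its mean in all WT and below it in all KO libraries by a clear margin, Hmox1 is high in WT 1 and KO 2 and low in KO 1 and WT 3, and KO 1 is above the mean for most peroxiredoxins while below it for Gclc and Ftl1.

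Levels of different genes were compared as CPM per kilobase of exon. The ferritin chains Ftl1 (245 in WT and 225 in KO) and Fth1 (222 and 231) led, followed by Txn1 (156 and 162) and Prdx1 (97.8 and 102), in CPM per kb. Below these, Hmox1, Prdx6, Gclc, Sod1 and Txnrd1 lay between 51.6 and 63.0 CPM per kb in WT. The cytosolic thioredoxin pair thus stood far above the mitochondrial pair, with 17.3 CPM per kb for Txn2 and 1.69 for Txnrd2 in WT. The lowest members in WT were Srxn1 (2.35), Txnrd2, Gss (1.13) and Gpx1 (1.11), in CPM per kb. The place of Gpx1 is uncertain, since its few counts may reflect how reads were assigned to genes, which was not tested. Exon lengths came from an annotation on another assembly, so these levels are approximate.

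**Figure D4:**
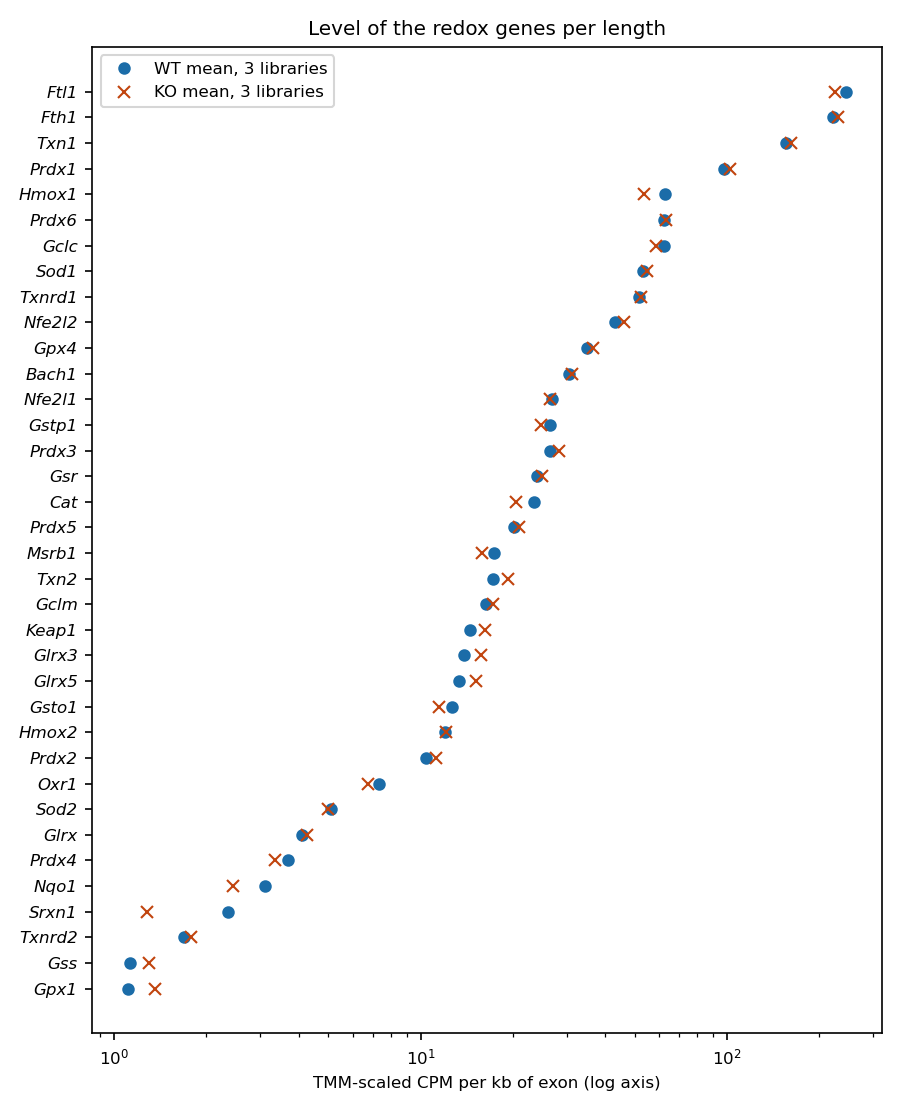
Mean TMM-scaled CPM per kb of exon in WT (circles) and KO (crosses) for each member, on a log axis and ordered by the WT value. The members span from 1.11 (Gpx1) to 245 (Ftl1) CPM per kb in WT, the former an uncertain value, and Srxn1 shows the widest gap between the marks.

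Promoter sequence is shown because Txnip, the redox gene that MondoA is known to drive, can be set beside the members. RefSeq windows on GRCm38.p6, from 250 bases before to 50 after the annotated start, were held for 31 of the 36 members. Windows were searched on both strands for a fixed form of the carbohydrate response element, to which MondoA and MLX bind. That form was 2 copies of CACGNG in the same orientation with 5 bases between them, and other forms were not searched. Also searched were the E-box CACGTG and the core of the antioxidant response element (TGACNNNGC). The AP-1 and small MAF core (TGANTCA), which can overlap the antioxidant core, was searched as well. The last was added after the Srxn1 sequence had been read. The searched form of the carbohydrate response element was found in 0 of the 31 members and in 0.0555% of 27025 genes with a window. With so small a share over all genes, the 0 says little about the members. Arrdc4, called lower in KO along with Txnip, also lacked this form of the element in its window and held an E-box. A lack of a match thus does not show a lack of binding. Txnip is one of the genes with a match, in capitals 85 bases before the start (chr3:96557847-96557913, plus strand).
Txnip: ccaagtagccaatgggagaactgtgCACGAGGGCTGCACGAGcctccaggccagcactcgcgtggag

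An E-box was found in 1 member, Prdx4, against 8.09% of all genes. The antioxidant core was found in 6 of the 31 members (Gclm, Nfe2l2, Prdx1, Sod1, Srxn1 and Txnrd1), 19.4% beside 14.0% of all genes. The matches of Prdx1 (chr4:116685441-116685499), Txnrd1 (chr10:82859089-82859147) and Gclm (chr3:122245398-122245456), all on the plus strand, are shown in capitals, read on the gene's strand so that the core appears reversed. Their genes had log2 fold changes of 0.06, 0.02 and 0.07 in KO.
Prdx1: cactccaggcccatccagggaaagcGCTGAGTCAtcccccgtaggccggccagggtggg
Txnrd1: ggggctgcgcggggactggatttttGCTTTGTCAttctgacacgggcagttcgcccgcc
Gclm: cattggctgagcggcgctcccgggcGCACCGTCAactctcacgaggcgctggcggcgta

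The 250 bases before the start of Srxn1 (chr2:152105274-152105523, plus strand) are given because this was the member that differed most. They hold 2 matches to TGANTCA, in capitals, 102 and 45 bases before the start. They hold no E-box and no match to the searched form of the carbohydrate response element. The antioxidant core of Srxn1 began at position 29, downstream of the start, and so lies outside this stretch.
Srxn1: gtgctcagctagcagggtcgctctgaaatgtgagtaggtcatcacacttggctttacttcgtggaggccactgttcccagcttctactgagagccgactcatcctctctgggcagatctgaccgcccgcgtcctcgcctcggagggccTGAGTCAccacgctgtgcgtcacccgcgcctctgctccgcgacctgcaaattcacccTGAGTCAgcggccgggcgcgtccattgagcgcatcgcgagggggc

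Matches to TGANTCA were held by 4 of the 31 members (Srxn1, Prdx1, Glrx and Gstp1), 12.9% beside 8.97% of all genes. A match describes the letters in these windows and does not show binding.

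The wider redox network was taken from 7 lists that together held 139 further genes, of which 133 were tested and 1, Txnip, was called. At an unadjusted p under 0.05 there were 9 higher and 7 lower among the 133, beside 10.8% of all genes in either direction and 5.77% lower, and their median log2 fold change was 0.011. The counts of single lists below are to be read against the same shares. The genes named from here on are the 3 of smallest p in each list, and all but Txnip missed the adjusted threshold in edgeR's quasi-likelihood test.

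Of 19 other thioredoxin-related genes 0 were higher and 1, Txnip, was lower at an unadjusted p under 0.05. After Txnip the smallest p-values belonged to Txnl4a (0.20), a splicing factor of the thioredoxin fold, and Txnrd3 (0.25), a reductase best known from testis, in log2 fold change. Of 28 tested genes of glutathione use and transport 1 was higher and 3 lower at an unadjusted p under 0.05. Slc3a2 encodes the heavy chain of the cystine and neutral amino acid transporters. It was 162, 148 and 143 CPM in WT and 201, 213 and 155 CPM in KO, with KO 3 among the WT libraries. Slc3a2 passed only with low-count genes kept (adjusted p = 0.0383 against 0.390 with the filter, edgeR quasi-likelihood test, Benjamini-Hochberg), where 511 genes were called in all. Gpx3, a secreted glutathione peroxidase, was 3.92, 5.65 and 4.68 CPM against 3.28, 3.27 and 2.75 CPM, and Mgst3, a microsomal transferase, was 0.803 ± 0.278 and 0.309 ± 0.186 CPM (± SD of 3).

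Among 23 other NRF2 targets and partners 3 were higher and 3 lower at an unadjusted p under 0.05, with a median log2 fold change of 0.035. Of the small MAF genes, whose products pair with both NRF2 and BACH1, Mafk and Maff stood apart from each other. Mafg, also in the list, was not among the 3 of smallest p. Mafk was 117, 125 and 116 CPM in WT and 149, 147 and 134 CPM in KO (log2 fold change 0.27), whereas Maff was 12.7, 13.0 and 16.5 CPM against 9.58, 11.8 and 9.77 CPM (-0.44). In both the groups did not overlap, and the adjusted p-values were 0.354 and 0.379 (edgeR quasi-likelihood test, Benjamini-Hochberg).

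NADPH supply had 13 of 16 tested genes above 0, beside 47.2% of all genes, and 2 higher and 1 lower at an unadjusted p under 0.05. Its median log2 fold change was 0.073. Scaling by library size alone gave 0.007. Tkt, transketolase of the pentose phosphate pathway, was 147, 161 and 140 CPM in WT and 197, 189 and 157 CPM in KO, and Mthfd1l, a mitochondrial folate enzyme, was 112, 111 and 101 CPM against 131, 142 and 122 CPM. Me1, cytosolic malic enzyme, was scarce and stood lower in KO, at 1.81 ± 0.436 and 0.923 ± 0.519 CPM (± SD of 3).

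The 20 selenoprotein genes and genes of their synthesis had 2 higher and 0 lower at an unadjusted p under 0.05. These were Selenos (0.26), a selenoprotein of the endoplasmic reticulum, and Eefsec (0.37), the elongation factor that delivers selenocysteine, and Selenoi (0.21) followed, in log2 fold change. Among 28 other iron and heme genes 2 were higher and 0 lower, Pcbp1 (0.26), an iron chaperone that also binds RNA, and Slc25a39 (0.29), the mitochondrial glutathione carrier, while Uros (-0.32) of heme synthesis came next, in log2 fold change. Of 8 tested genes of the phagocyte NADPH oxidase and of superoxide handling 0 were higher and 1 lower. Ncf4, an oxidase subunit, was 43.2, 35.0 and 45.3 CPM in WT and 27.1, 31.8 and 35.2 CPM in KO. Cybb, the catalytic subunit, was 15.8, 8.23 and 13.5 CPM against 9.84, 9.77 and 6.03 CPM, and Rac2, its small GTPase, was 540 ± 7.73 and 589 ± 6.65 CPM (± SD of 3). Myeloid and B cells also express Ncf4 and Cybb. The sum of the B cell markers was lowest in KO 3, as Cybb was. Ncf4 was lowest in KO 1, where the B cell sum was the highest of the KO libraries. The myeloid sum was at its lowest, 14.2 CPM, in KO 1 and in WT 2. Ncf4 and both sums were highest in WT 3, whereas Cybb was highest in WT 1, where neither sum was. The part of these cells in the Ncf4 and Cybb values was not tested.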

How the data were processed

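The deposited file gives whole-number read counts per Ensembl gene for 6 libraries, not normalized. Per the submitters' processing notes, the authors used HISAT2, Subread, featureCounts and the GRCm39 assembly to make them. Their versions, the strand setting and the treatment of multi-mapping reads are not given here or in the labels. Without a known strand setting, members whose exons overlap a gene on the other strand, above all Hmox2 with Cdip1 (40.2% of its exon bases), Ftl1 with Gm10252 (26.5%) and Prdx5 with Trmt112 (19.1%), are uncertain.

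Symbols came from exact matches of 52029 identifiers to GENCODE M21 on GRCm38, which also gave exon lengths and the exon overlaps. The counts were made on GRCm39, so these overlaps are approximate. Genes were kept by filterByExpr (minimum count 10, minimum total 15), scaled by TMM and tested with edgeR 4.0.16 (glmQLFit and glmQLFTest, genotype as the only term, two-sided, Benjamini-Hochberg over all 16439 genes) in R 4.3.3, with limma 3.58.1 and DESeq2 1.42.0 as alternatives. The 95% intervals are from the same fit. A median over an arm has no test. An exact permutation test of 3 against 3 cannot go below p = 0.1. A count of 0 allows 3 counts, up to 0.115 CPM in the shallowest library, for counting error only. The procedure was tested on simulated data in which all genes shared the same variability between replicates, a simpler setting than these data. The members and gene lists were chosen with earlier results of these data known. All 36 members are named, with Mlxip, Txnip, Arrdc4 and, from each other list, the 3 genes of smallest p and, where needed, the 2 most abundant of each marker list. Replicates of a group differed beyond sampling noise (chi-square per gene of 16.0 to 40.4). A marker gene of the erythroid list is not reported here and was left out of its sum.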

Additional observations from a re-analysis of the deposited data

How the results depend on the processing

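Alternatives were library size as the only scaling, RLE size factors, DESeq2, limma-voom, no filter on low counts, a mean of at least 5 CPM (which left out Gpx1 and Nqo1), a replicate block, each library left out in turn and, chosen after seeing the data, a term for sex read from transcripts. Genes called in all were 153 with DESeq2, 511 without the filter (29109 genes tested), 6 with the sex term, and 2 to 80 with 1 library left out, the 80 without KO 3. Members called were 1 with DESeq2 and 1 without the filter (Srxn1 both times) and 0 in the other 12 alternatives. Further pathway genes called were 2 without the filter (Txnip and Slc3a2). The cause of these differences was not tested.

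Members higher at an unadjusted p under 0.05 ran from 0 to 2 with 1 library left out: Glrx3 and Glrx5 without WT 2, Txn2 and Keap1 without KO 3. Members lower were 2 with library size only and likewise among genes reaching 5 CPM on average (Srxn1 and Cat), 2 without the filter (Srxn1 and Hmox1), and 1 to 2 with 1 library left out (Ftl1 besides Srxn1 without KO 2).

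The replicate numbers carry no stated pairing, and the deviations of same-numbered libraries correlated at -0.006, -0.189 and -0.047. With the replicate block 2 genes and 0 members were called, Srxn1 was -0.87 (adjusted p = 0.446, edgeR with Benjamini-Hochberg adjustment) and Hba-a1 0.021.

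With library size only, which moves the median of all genes from -0.016 to -0.083, uncalled log2 fold changes turned for Txn1 (-0.012), Txnrd1 (-0.044), Gsr (-0.013), Glrx (-0.008), Prdx1 (-0.009), Prdx5 (-0.005), Prdx6 (-0.049), Gpx4 (-0.004), Sod1 (-0.03), Hmox2 (-0.056), Fth1 (-0.01) and Bach1 (-0.032). Medians became -0.012 for the thioredoxin arm, -0.008 for the glutathione arm, -0.03 for the peroxide arm, -0.032 for the NRF2 axis, -0.012 for other thioredoxin genes, -0.032 for other NRF2 targets, -0.033 for selenoproteins and -0.066 for other iron and heme genes. The median deviation became -0.086 in KO 1 and -0.034 in KO 2 for the peroxide arm, and -0.01 in WT 1 and 0.021 in WT 3 for the NRF2 axis. At a mean of at least 5 CPM Prdx6 was -0.004 and Hmox2 -0.011. Hbb-bs was 0.03 and Hba-a1 0.032 with limma-voom, and Hba-a1 0.008 with the sex term.

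Leaving out 1 library turned further uncalled log2 fold changes, which ranged from -0.007 to 0.129 for Txn1, -0.054 to 0.131 for Txnrd1, -0.029 to 0.217 for Txnrd2, -0.315 to 0.017 for Msrb1, -0.2 to 0.103 for Gclc, -0.09 to 0.284 for Gclm, -0.057 to 0.151 for Gsr, -0.072 to 0.145 for Glrx and -0.199 to 0.026 for Gstp1. The ranges were -0.043 to 0.134 for Prdx1, -0.072 to 0.221 for Prdx3, -0.009 to 0.126 for Prdx5, -0.025 to 0.076 for Prdx6, 0 to 0.121 for Gpx4, -0.026 to 0.133 for Sod1, -0.095 to 0.042 for Sod2, -0.549 to 0.134 for Hmox1, -0.054 to 0.082 for Hmox2, -0.061 to 0.151 for Fth1, -0.055 to 0.035 for Nfe2l1 and -0.033 to 0.133 for Bach1. They were -0.038 to 0.267 for Cd68, -0.682 to 0.493 for Hbb-bs and -0.468 to 0.452 for Hba-a1. The median of the peroxide arm ranged from -0.043 (without WT 3) to 0.069, and that of other thioredoxin genes from 0.062 to 0.097. Gpx1 had 38 to 71 counts, so counting error is widest there among the members.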
